A study of Mus musculus with 23 samples.

Results

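The genes described here are 34 mouse genes of the interferon response and of nucleic acid sensing, a list fixed by name. They were located by their spans in the RefSeq annotation of the mouse build GRCm38.p6, whose chromosome coordinates are those of mm10. They are 34 of the 21883 protein-coding genes on chromosomes 1 to 19, X and Y. They were split by role into 10 sensors and adaptors, 7 signalling factors and 17 interferon-stimulated effectors. All were found in the annotation. The data came from CUT&Tag, in which an antibody brings a transposase to its target so that nearby DNA is cut and tagged, on naive CD4+ T cells (tissue label: spleen and pLN) of WT mice and of DDX55 KO mice, which lack a DEAD-box RNA helicase. Of 23 samples, 20 name one of 4 merged peak lists: RNA polymerase II (2 WT and 2 KO samples), H3K9me3 (2 and 2), DDX55 (2 and 2) and R-loop, for which hybrids of DNA and RNA were bound by antibody S9.6 (4 WT and 4 KO, of which 4 samples in all had 20 U of RNase H). The labels give no strain, age, sex, allele or Cre driver, and do not say which mouse a sample came from. Each list holds positions only, with no value per sample, so no difference between WT and KO, no RNase H effect and no replicate spread could be measured for these genes. The depth is unknown.

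Cells detect foreign or misplaced nucleic acid with a small set of receptors. IFIH1 (MDA5) binds long double-stranded RNA in the cytosol and signals through MAVS on mitochondria, cGAS binds DNA and signals through STING, and TLR3, TLR7 and TLR9 read nucleic acid in endosomes. These routes activate the factors IRF3 and IRF7, which switch on type I interferon genes. Interferon binds the receptor IFNAR1 and IFNAR2, and a complex that contains STAT2 and IRF9 then binds the interferon-stimulated response element (ISRE) in front of effector genes such as Isg15, the Ifit genes and the Oas genes.

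The promoters that show how RNA polymerase II peaks and ISRE letters were placed are printed first. Each line gives the 250 bases before an annotated start, 5′ to 3′ on the gene's own strand (RefSeq, GRCm38.p6), in lower case. Capitals mark each ISRE core: GAAA, any 2 bases, GAAA, on either strand, so that some matches read in the reverse complement. Stat2 (chr10:128270248-128270497, plus strand) and Rsad2 (chr12:26456453-26456702, minus strand) are shown because they were the members with both an ISRE core and a peak over the start.
Stat2: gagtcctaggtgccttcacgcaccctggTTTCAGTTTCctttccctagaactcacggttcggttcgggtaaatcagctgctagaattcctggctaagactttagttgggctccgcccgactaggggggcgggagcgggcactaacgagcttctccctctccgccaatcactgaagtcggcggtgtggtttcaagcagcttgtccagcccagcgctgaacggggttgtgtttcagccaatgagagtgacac
Rsad2: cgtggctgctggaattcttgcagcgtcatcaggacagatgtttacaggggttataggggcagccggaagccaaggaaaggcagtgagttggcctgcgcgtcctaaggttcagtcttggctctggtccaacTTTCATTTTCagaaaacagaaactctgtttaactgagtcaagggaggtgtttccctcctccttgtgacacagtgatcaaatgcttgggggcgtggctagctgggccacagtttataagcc

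Bst2 (chr8:71537473-71537722, minus strand), Ifi44 (chr3:151749911-151750160, minus strand) and Ifit1 (chr19:34640639-34640888, plus strand) are shown as effectors with no RNA polymerase II peak at a gene end, the first of them in alphabetical order. Bst2 and Ifit1 held 2 cores each and Ifi44 held 0.
Bst2: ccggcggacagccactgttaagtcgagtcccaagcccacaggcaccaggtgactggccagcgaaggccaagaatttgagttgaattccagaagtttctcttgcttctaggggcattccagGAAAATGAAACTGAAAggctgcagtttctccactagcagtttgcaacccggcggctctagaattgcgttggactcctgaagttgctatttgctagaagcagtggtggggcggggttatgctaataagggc
Ifi44: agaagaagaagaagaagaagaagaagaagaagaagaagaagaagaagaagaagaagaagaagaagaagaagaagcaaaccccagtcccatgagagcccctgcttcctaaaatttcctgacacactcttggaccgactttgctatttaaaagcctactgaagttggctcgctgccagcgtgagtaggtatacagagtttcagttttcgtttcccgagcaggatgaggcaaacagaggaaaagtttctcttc
Ifit1: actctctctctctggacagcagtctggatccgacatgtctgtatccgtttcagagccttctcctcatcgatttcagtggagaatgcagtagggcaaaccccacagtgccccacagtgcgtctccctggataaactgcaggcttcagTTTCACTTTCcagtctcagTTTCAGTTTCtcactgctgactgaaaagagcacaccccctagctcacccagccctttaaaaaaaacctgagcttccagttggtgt

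A further 4 promoters were picked after their values were seen. Isg15 (chr4:156200819-156201068, minus strand) held 3 overlapping cores and Oas1a (chr5:120907526-120907775, minus strand) held 2. Ifit3 (chr19:34583279-34583528, plus strand) and Ifit3b (chr19:34607707-34607956, plus strand) are neighbouring copies. Over the 274 aligned positions of their promoter windows 259 were identical (94.5%), and each held 2 cores.
Isg15: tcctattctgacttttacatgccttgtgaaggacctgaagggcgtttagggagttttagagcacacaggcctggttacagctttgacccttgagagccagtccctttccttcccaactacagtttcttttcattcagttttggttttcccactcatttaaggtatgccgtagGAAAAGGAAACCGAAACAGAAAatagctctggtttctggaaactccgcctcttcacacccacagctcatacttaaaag
Oas1a: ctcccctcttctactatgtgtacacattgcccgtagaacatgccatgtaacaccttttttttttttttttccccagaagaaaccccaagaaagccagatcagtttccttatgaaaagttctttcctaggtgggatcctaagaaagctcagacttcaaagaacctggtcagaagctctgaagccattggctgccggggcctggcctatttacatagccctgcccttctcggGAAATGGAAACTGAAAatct
Ifit3: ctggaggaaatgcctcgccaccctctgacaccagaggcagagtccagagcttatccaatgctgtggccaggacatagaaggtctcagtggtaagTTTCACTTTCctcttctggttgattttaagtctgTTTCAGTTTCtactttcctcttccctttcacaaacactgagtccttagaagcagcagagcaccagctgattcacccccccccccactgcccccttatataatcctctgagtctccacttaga
Ifit3b: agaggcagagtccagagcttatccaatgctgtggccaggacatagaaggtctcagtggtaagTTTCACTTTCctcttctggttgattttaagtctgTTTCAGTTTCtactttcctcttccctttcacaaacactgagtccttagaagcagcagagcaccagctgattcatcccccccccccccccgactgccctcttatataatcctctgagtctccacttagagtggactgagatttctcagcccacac

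The cell label was compared with marker genes. An RNA polymerase II peak lay near an end of 9 of 11 markers of naive CD4 T cells, among them Cd4, Cd3e, Ccr7 and Lef1, against 33.5% of all protein-coding genes. The same held for 1 of 6 B cell markers (Cd79a), 0 of 6 myeloid markers, 0 of 6 plasmacytoid dendritic markers, 1 of 6 CD8 T and NK markers (Prf1) and 2 of 6 erythroid markers (Epor and Klf1, 33.3%, near the share of all genes). At that share a list of 6 would hold 2.01 genes. The peak counted for Cd79a (816 bp) lay nearest to Arhgef1, and that for Epor (758 bp) nearest to Swsap1. Among the naive CD4 T cell markers, the peak counted for Cd3g (844 bp) lay nearest to Cd3d. The myeloid marker Mpo had a peak of 417 bp inside its span. Plasmacytoid dendritic cells and myeloid cells are known as strong users of Tlr7, Tlr9 and Irf7. No listed marker of either had a peak at an end. For 0 of 6 the exact 95% interval reached 45.9%, above the 33.5% of all genes, so these counts show no difference from other genes. Whether such cells contributed to the peaks described here was not tested. The RNA polymerase II list held 10898 peaks on the assembled chromosomes, against 16474 for H3K9me3, 1473 for R-loop and 215 for DDX55.

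RNA polymerase II was the only one of the 4 targets found at these genes. A peak overlapped the window of 3000 bp on either side of a gene end (called here a peak at an end) in 19 of 34 members, 55.9% (exact 95% interval 37.9 to 72.8), against 33.5% of all protein-coding genes. The peak overlapped the gene itself in 16 of 34, against 32.2% of all genes. The classes differed in level: 7 of 7 signalling factors, 10 of 17 effectors (58.8%, interval 32.9 to 81.6) and 2 of 10 sensors and adaptors (20.0%, interval 2.52 to 55.6) had a peak at an end. With only the wider 50% of peaks, effectors fell to 3 of 17 (17.6%), below the 21.6% of all genes under that rule, so their direction against the background turned. No test was made of these shares, since the genes were listed by function and are not replicates, and intervals cover counting error only.

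**Figure D1:**
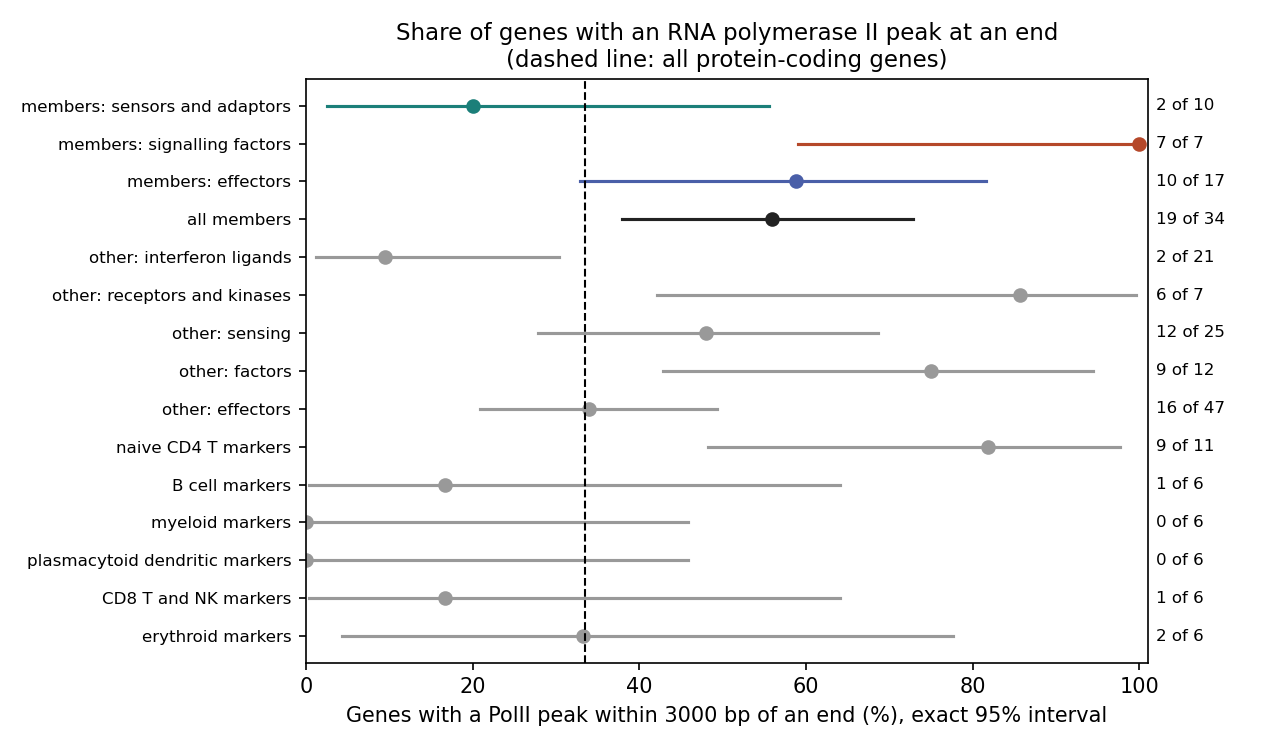
Percent of genes with polymerase peaks at an end, that is no further than 3000 bp from it (x axis) for each class of member and for other gene lists (rows), with exact 95% intervals and counts at the right; the dashed line marks all protein-coding genes (33.5%). All 7 signalling factors had a peak, while 2 of 10 sensors and adaptors did.

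The widest peaks at an end among the members were those of the signalling factors Irf7 and Irf1, followed by that of Trim25 (1661 bp). Irf7, the regulator that amplifies type I interferon production, had a peak of 2397 bp on chromosome 7 (141264016 to 141266412) that covered 72.3% of its 3317 bp span, and 0.355% of protein-coding genes with a peak at an end had one at least as wide. Irf1, a factor induced by interferon gamma, had a peak of 2301 bp (chromosome 11, 53769455 to 53771755), a width reached by 0.477% of such genes. This peak ran from 559 bases before the first annotated start of Irf1 to 1741 after it. The Irf7 peak began 12 bases after its start and ended 2408 after it, so nearly all of it lay in the transcribed direction.

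The genes of the factor that binds the ISRE both had peaks over their starts. At Stat2 the peak was 795 bp wide (chromosome 10, 128270257 to 128271051) and ran from 241 bases before the start to 553 after it, over the core shown in capitals above. Stat2 has the end of a neighbour, Apof, under the same peak. At Irf9 a peak of 741 bp (chromosome 14, 55603839 to 55604579) lay over the start and a second of 328 bp lay further inside the gene. Irf3, a factor that the sensing routes activate, had a peak of 658 bp (chromosome 7, 44997300 to 44997957). Its midpoint was 10 bases from the nearest end of Bcl2l12, which abuts Irf3, so polymerase at these adjacent genes cannot be told apart.

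The receptor genes Ifnar2 and Ifnar1 lie in a row on chromosome 16 and had 3 peaks each at their ends. At Ifnar1 the widest, 1294 bp (91484613 to 91485906), lay over the start, followed by 309 bp inside the gene and 207 bp past its far end. At Ifnar2 the peak by the start was 369 bp wide and began 85 bases after it. The wider Ifnar2 peaks, of 650 bp and 815 bp, lay at its far end, and the 815 bp peak was nearest to Il10rb, the gene that follows. Thus every signalling factor had a peak that overlapped its span, and 6 of 7 had one over the promoter window (250 bases before to 50 after a start), with Ifnar2 the exception.

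Among sensors and adaptors, Trim25 was alone in having a peak in its span. Trim25, a ubiquitin ligase that assists RIG-I, had a peak of 1661 bp over its start (chromosome 11, 88999133 to 89000793), a width that 3.85% of genes with a peak at an end reached, and another of 235 bp past its far end. The wide peak also overlaps the lncRNA gene Gm11496. The peak counted for Cgas, the cytosolic DNA sensor, was 695 bp wide (chromosome 9, 78428474 to 78429168) and lay 1.35 kb beyond the end opposite its start, over the pseudogene Gm8093. It was lost with windows of 1000 bp, which left 1 of 10 sensors and adaptors with a peak, against 29.3% of all genes under that rule.

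The other 8 sensors and adaptors had no peak of any list at an end or in the span. For Tlr9 (10.8 kb), Sting1 (11.4 kb), Mavs (14.3 kb) and Eif2ak2 (14.6 kb), which encodes the double-stranded RNA-activated kinase PKR, the gap to the nearest RNA polymerase II peak is the value in parentheses. For Tlr7 it lay 93.6 kb away, for Zbp1, a sensor of Z-form nucleic acid, 115 kb, for Tlr3 564 kb and for Ifih1 793 kb. The median over all protein-coding genes was 25.5 kb. Within 50 kb a peak was found for 27 of 34 members, against 58.1% of all genes. A gene with no peak in a merged list is one where no peak was called, which is not the same as one that is silent.

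**Figure D2:**
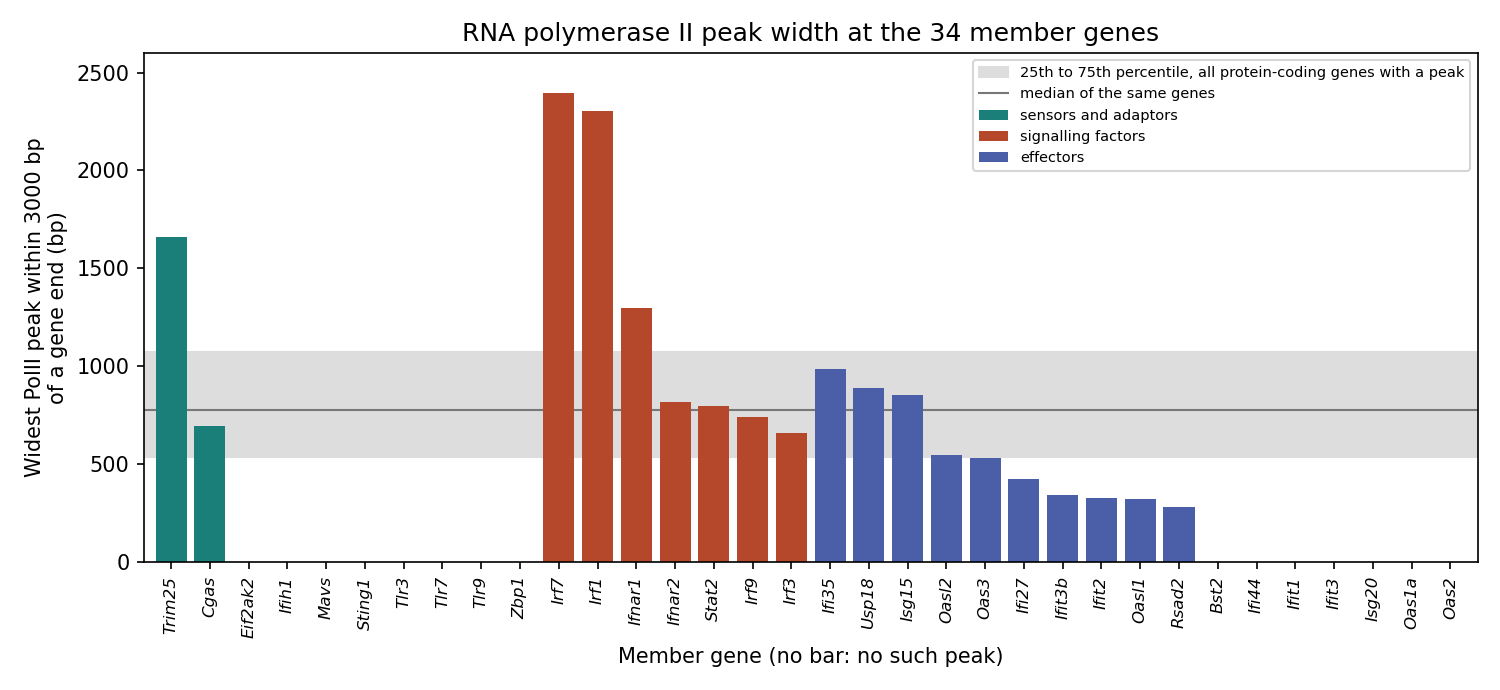
Width in bp of the widest polymerase peak at an end (y axis, from 0) for each of the 34 members (x axis), coloured by class; the grey band and line are the quartiles (536 to 1070 bp) and median (777 bp) of the 7331 protein-coding genes with such a peak. Irf7 (2397 bp), Irf1 (2301 bp), Trim25 (1661 bp) and Ifnar1 (1294 bp) rise above the band, and 15 members have no bar.

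Effector genes, which encode the proteins that block viral growth, more often had narrow peaks. The widest peak at an end had a median of 477 bp over the 10 effectors with one and ranged from 280 to 982 bp. For the 7 signalling factors the median was 815 bp and the range 658 to 2397 bp, so the ranges overlapped. Over the 7331 protein-coding genes with a peak the median was 777 bp. Of the 10 effectors 7 lay below that median, and of the 7 signalling factors 5 lay above it. Some of these widths come from peaks nearest to another gene. These are Ifnar2 (815 bp, nearest to Il10rb), Irf3 (658 bp, nearest to Bcl2l12) and the effector Isg15 (849 bp, nearest to Perm1). The widest peak in the span of Ifnar2 was 650 bp, below that median. Width is the extent of a called region and is not a measure of signal.

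The Ifit genes, whose products bind viral RNA, lie in a cluster of 99.5 kb on chromosome 19 that held 2 RNA polymerase II peaks. Ifit2 had a peak of 325 bp (34550762 to 34551086) ending 2 bases before the second of its 2 annotated starts. Ifit3b had a peak of 340 bp (34607367 to 34607706) ending 251 bases before its start, and this peak also lies inside the span of Ifit1bl1. Ifit3 and Ifit1 had none, with the nearest peak 18.4 and 33.2 kb away. The promoters of Ifit3 and Ifit3b were 94.5% identical, but the peak ends just before the bases compared, and the copies were not compared under the peak itself. Which of the pair its reads came from is therefore uncertain.

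The Oas genes make the short oligoadenylates that activate RNase L. In the 177 kb from Oas2 to Oas1a on chromosome 5 there were 2 peaks, both inside Oas3. They were 238 bp (120776717 to 120776954) and 530 bp (120775076 to 120775605) wide, and began 705 and 2054 bases after the start of Oas3, with none over the start itself. Oas2 and Oas1a had no peak, and the nearest lay 25.2 and 119 kb away. Of the related Oasl pair, Oasl2 had a peak of 546 bp (114896984 to 114897529) that began 50 bases after its start. The peak counted for Oasl1 was 321 bp wide (114921837 to 114922157), lay from 1403 to 1083 bases before its start and overlapped the lncRNA gene Gm13822.

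**Figure D3:**
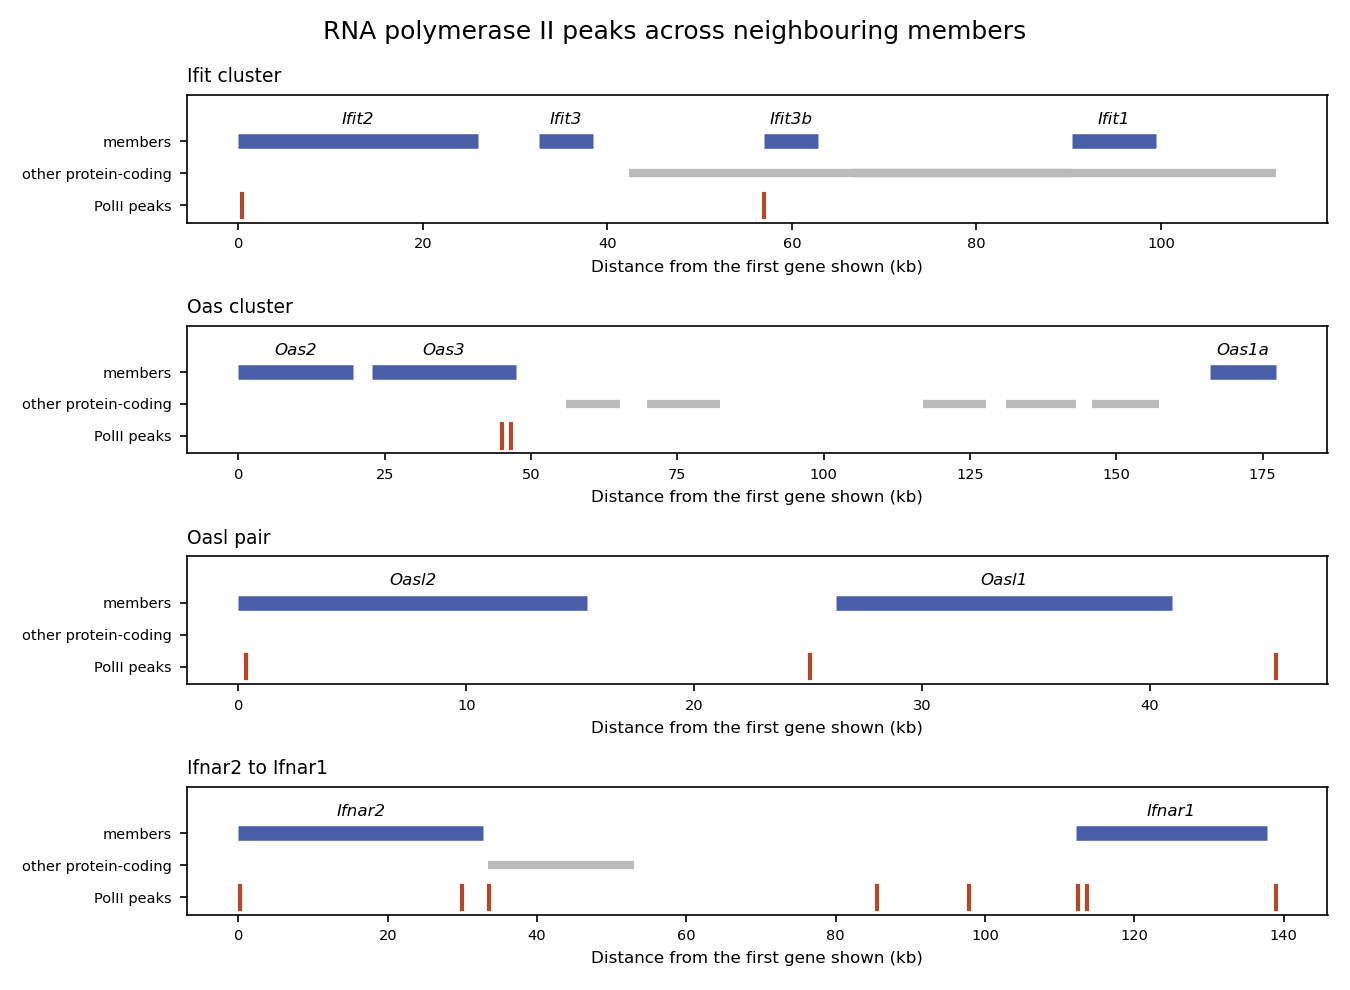
Maps of 4 groups of neighbouring members, with distance in kb from the first gene on the x axis: members (blue), other protein-coding genes (grey) and RNA polymerase II peaks (red ticks at peak midpoints). The Ifit cluster shows 2 peaks over 99.5 kb and the Oas cluster 2 over 177 kb, both in Oas3.

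Among the remaining effectors, Ifi35 and Usp18 had peaks as wide as those of other genes. Ifi35 had 982 bp over its start (chromosome 11, 101448084 to 101449065). Usp18, the protease that removes ISG15 and restrains the interferon receptor, had 889 bp (chromosome 6, 121245284 to 121246172) across an end. Rsad2, which encodes viperin, had the narrowest, 280 bp (chromosome 12, 26456175 to 26456454), from 2 bases before its start to 277 after it, and 98.4% of genes with a peak had one at least as wide. Ifi27 had 424 bp (chromosome 12, 103434498 to 103434921), a peak shared with the neighbouring gene Ifi27l2a.

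Isg15, the ubiquitin-like modifier, had no peak in its span or over its start. The peaks counted for it, 368 and 849 bp wide, lay from 1821 to 3404 bases before its start and were nearest to an end of Perm1. With only peaks nearest to the member itself, Isg15 and Irf3 dropped out and 17 of 34 members remained, against 27.0% of all protein-coding genes under the same rule. Bst2, which encodes the virus-tethering protein tetherin, had no peak at an end, and the nearest lay 5.43 kb away. Isg20, an exonuclease gene, and Ifi44 had none either, at 130 and 444 kb.

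Over annotated starts the members differed less from other genes. Starts were known for 28 members. An RNA polymerase II peak lay over the promoter window in 10 of 28 (35.7%, exact interval 18.6 to 55.9), against 27.0% of 17491 protein-coding genes with such an entry. By class these were 6 of 7 signalling factors, 3 of 14 effectors (Ifit2, Ifi35 and Rsad2) and 1 of 7 sensors and adaptors (Trim25). With 500 bp on each side of the start, Ifit3b, Ifnar2 and Oasl2 were added. The count was then 13 of 28 (46.4%), against 30.1% of all genes under that rule.

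The letters of the ISRE were then set beside the polymerase peaks. A core lay in the promoter window of 11 of 28 members (39.3%), against 3.94% of promoters of all protein-coding genes, but the list consists largely of genes known to respond to interferon, so this share is no independent finding. The 11 were 8 effectors, the sensors Ifih1 and Eif2ak2, whose cores lay after the start, and Stat2. Of the 11, Stat2 and Rsad2 had a peak over the start (18.2%), while 8 of the 17 members without a core did (47.1%). Among all 689 genes with a core, 172 had one against 27.0% of all genes. At an end, 5 of the 11 had a peak, as did 12 of the 17 without a core, against 33.5% of all genes. Core and class were not separated in these counts. Of the 11 members with a core 8 were effectors, and of the 8 with a peak over the start and no core 5 were signalling factors. Among effectors, 1 with a core and 2 without had a peak over the start, while 7 and 4 had none. Before the start alone, 9 of 28 members held a core, against 3.48% of all genes. The 5 members with the longer form of the core, followed by CT, were Bst2, Ifit1, Ifit3, Ifit3b and Oas1a (17.9%, against 0.366% of all genes). A peak lay over the start in 0 of these 5, against 12 of all 64 genes with that form (18.8%). With 5 members, 0 cannot be told from that share. The count of 0 also depends on the edge of the window, since the Ifit3b peak ends 251 bases before the start and was included with 500 bp on each side. The match count is a description of letters and not of binding.

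**Figure D4:**
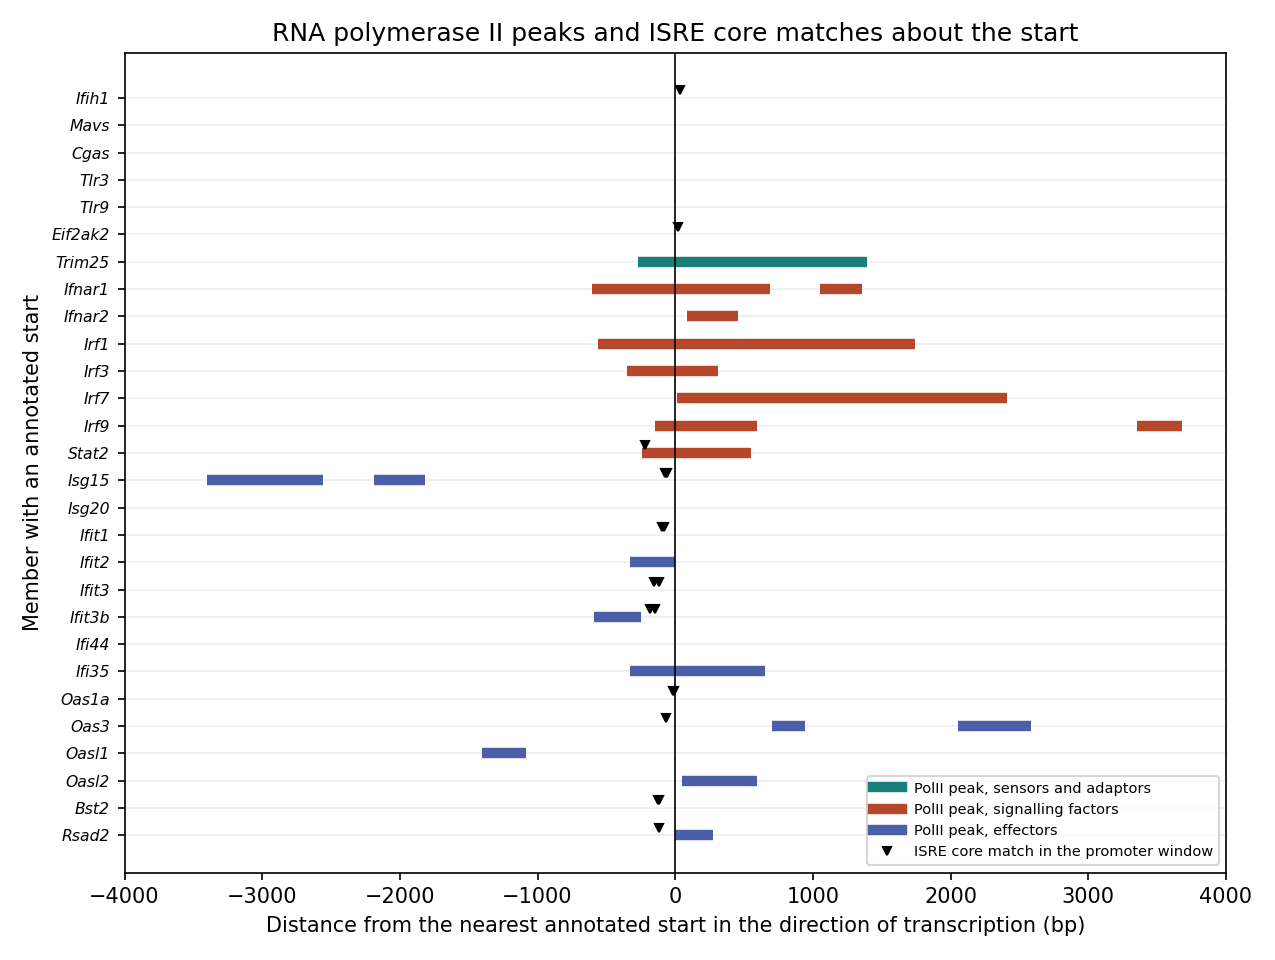
Position of RNA polymerase II peaks (bars) and ISRE core matches (triangles) relative to the nearest annotated start, in bp along the direction of transcription (x axis), for the 28 members with a known start (rows, coloured by class). Bars cross or touch the start at most signalling factors, while most triangles stand on rows with no bar at the start.

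The position of the cores in the printed promoters varied over most of the window. The core furthest from the start was that of Stat2, which began 222 bases before it, and the core of Rsad2 began at 120. At Isg15 the overlapping cores ran from 78 to 57 bases before it, and at Oas1a from 20 to 5 bases before it. At Ifit1 they began 104 and 85 bases before the start and at Bst2 130 and 124. Ifit3 and Ifit3b held the same pair at 156 and 122 and at 188 and 154 bases. The gamma-activated sequence TTCNNNGAA reads the same on both strands and was in 9 of 28 member windows (32.1%) against 8.92% of all. It lay at Irf1, Ifnar1 and Ifi35, which had a peak over the same promoter window. At Ifit2 it lay in the window of the first start, while the peak lay over the window of the second. It also lay at Ifnar2, Isg20, Oas1a, Bst2 and Eif2ak2, which had no peak over a start. Bst2, Oas1a and Eif2ak2 held both kinds of motif.

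Promoter composition differed between the classes in its medians, with overlapping ranges. The ratio of observed to expected CpG, taken from the start with the highest ratio, had a median of 0.752 over the 7 signalling factors, 0.636 over 7 sensors and adaptors and 0.279 over 14 effectors, against 0.609 over all 17491 genes with an entry. Values ran from 0.31 to 1.02 in signalling factors, 0.0 to 0.819 in sensors and adaptors and 0.0564 to 0.55 in effectors. Across all genes the median was 0.849 with a peak over a start and 0.409 without, and over the members 0.583 and 0.385. The order of the classes by this ratio was not that of their peaks over starts: sensors and adaptors had a peak at 1 of 7 (14.3%) and effectors at 3 of 14 (21.4%). The part of base composition in the peak counts was not tested.

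H3K9me3, the heterochromatin mark, had 0 peaks at the ends and 0 in the spans of the 34 members, against 2.96% and 5.39% of all protein-coding genes. A count of 0 of 34 allows a share of up to 8.82%, so a lower level than in other genes was not detectable. The nearest H3K9me3 peak lay 23.1 kb from Ifnar2 and 41.0 kb from Isg15. Within 50 kb there was one for 3 of 34 members (Ifnar2, Isg15 and Ifi44), against 19.2% of all genes. The median gap was 470 kb over the members and 318 kb over all genes, and the quartiles (170 to 1110 kb and 85.9 to 727 kb) overlapped.

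R-loop and DDX55 peaks were also at 0 of 34 ends and 0 of 34 spans. The background was 0.631% and 1.59% of genes for R-loop and 0.256% and 0.324% for DDX55, at which a list of this size would hold fewer than 1 gene, so these counts show no difference from other genes. Within 50 kb there was an R-loop peak for 1 of 34 members (4.62% of all genes) and a DDX55 peak for 0 of 34 (0.982%). The R-loop peak nearest to a member lay 44.4 kb from Oasl2 and 70.7 kb from Oasl1. The DDX55 peak nearest to a member lay 320 kb from Bst2, and the next 372 kb from Irf7. Median gaps were 1580 kb for R-loop, against 1150 kb over all genes, and 12100 kb for DDX55, against 8840 kb. Over annotated starts all 3 lists were at 0 of 28 members, against 0.457% of genes for H3K9me3, 0.172% for R-loop and 0.0686% for DDX55. No member had such a peak together with RNA polymerase II at an end, against 0.48%, 0.238% and 0.192% of all genes in the same order. The wide polymerase peaks of Irf7 and Irf1 had no called S9.6 or DDX55 peak within 50 kb.

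**Figure D5:**
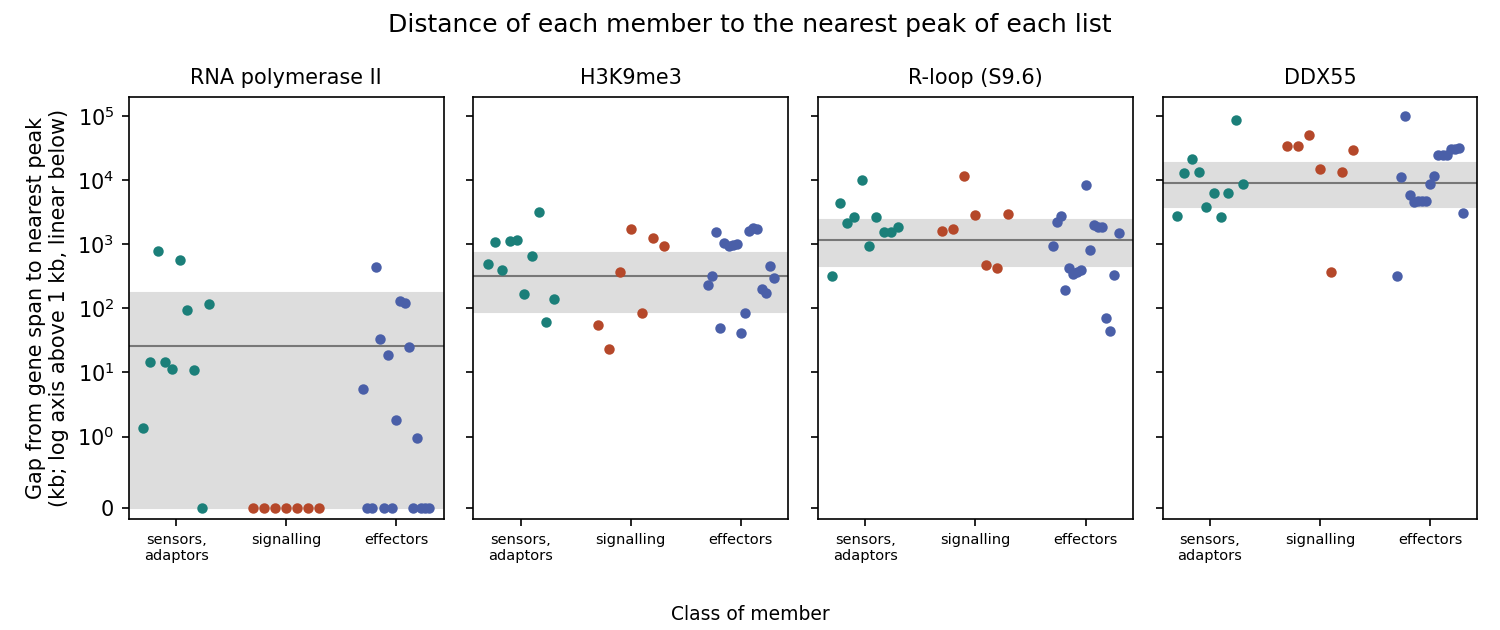
Gap in kb from each member's span to the nearest peak of each list (y axis, logarithmic above 1 kb and linear below, 0 meaning overlap), by class of member (x axis); the grey band and line are the quartiles and median over all protein-coding genes. Points at 0 occur for RNA polymerase II only.

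Other genes of the pathway, 112 protein-coding genes listed by role, were also counted. An RNA polymerase II peak lay at an end of 45 of 112 (40.2%) against 33.5% of all genes. With only the wider 50% of peaks it was 20 of 112 (17.9%) against 21.6%, so that direction turned as well. Of 7 further receptors and kinases 6 had one, among them Ifngr1 (927 bp), Ifngr2 (781 bp), Il10rb (815 bp, the peak also counted for Ifnar2), Jak1 (841 bp), Jak2 (313 bp) and Tyk2 (641 bp). Of 12 further factors 9 had one, among them Irf2 (657 bp), Irf2bp2 (1251 bp), Irf4 (990 bp), Nfkb1 (427 bp), Rela (1027 bp) and Socs1 (599 bp).

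Further sensing genes had a peak in 12 of 25 cases, among them Ddx41 (534 bp), Ddx58 (616 bp), which encodes the RNA sensor RIG-I, Ddx60 (301 bp), Ikbke (389 bp), Irak4 (493 bp) and Myd88 (564 bp, nearest to Acaa1a). Trex1, the exonuclease that clears cytosolic DNA, had 1626 bp, a peak it shares with Shisa5. Further effectors had one in 16 of 47, a share near the background of 33.5%, among them Cmpk2 (359 bp), Dtx3l (1424 bp), Ifi206 (410 bp), Ifi208 (593 bp), Ifi213 (459 bp) and Ifi27l2a (424 bp, the Ifi27 peak). The exact 95% intervals of the further sensing genes (27.8 to 68.7%) and effectors (20.9 to 49.3%) overlapped and both held the background. Of the 21 interferon ligand genes 2 had one, Ifnk, whose peak of 698 bp lay nearest to Mob3b, and Ifnz (606 bp). No peak was called at an end of Ifnb1, Ifng or the listed Ifna genes.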

How the data were processed

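Per the submitters' processing notes, the authors worked on mm10 with MACS3 3.0.0b1, Bowtie2 2.5.0, fastp 0.12.4, ChIPseeker 1.30.3 and SAMtools 1.15.1. For peak thresholds and for the way samples were merged, nothing was given in the sources used here. The deposited values are peak coordinates in bp, a unit other than counts or signal, without scores.

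Peaks were overlapped (at least 1 bp) with gene spans and with windows of 3000 bp around both ends of each gene, since the gene table has no strand. Starts and promoters came from a RefSeq promoter table with 28 of the 34 members. Symbols matched directly, apart from Rigi, listed as Ddx58. Mx1, Mx2 and Oas1b are not protein-coding there and were left out of the pathway counts. Python 3.11.15, numpy 2.4.6, pandas 2.3.3, scipy 1.17.1 (exact Clopper-Pearson intervals) and Biopython 1.88 were used. The overlap code was tested on simulated peaks, and bedtools 2.31.1 gave the same 7331 genes with an RNA polymerase II peak at an end.

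Members, classes and lists were chosen with earlier results of these data known. Named were all members, each with its peaks, and up to 6 genes per pathway list with a peak in alphabetical order. Trex1 was named after its values were seen. A result on 1 other pathway gene is not reported here. HA and IgG samples name no list and were not analysed here.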

Additional observations from a re-analysis of the deposited data

How the results depend on the processing

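An alternative kept only the wider 50% of each list. The lists hold no scores, so this is a cut by width and not a stricter peak threshold. Under it, members with an RNA polymerase II peak at an end fell from 19 to 12 (35.3%, all genes 21.6%). Members with a peak in the span fell from 16 to 10 (29.4%, all genes 21.2%). Effectors with a peak at an end fell from 10 to 3 (Ifi35, Usp18 and Isg15), and other pathway genes from 45 to 20. The effectors (17.6%) and the other pathway genes (17.9%) then lay below all genes, the opposite of the direction with all peaks. The 7 lost members were Ifi27, Ifit2, Ifit3b, Oas3, Oasl1, Oasl2 and Rsad2, while 7 of 7 signalling factors were kept. The widest peaks of the lost members were 280 to 546 bp, below the list median of 638 bp. The fall of the effectors thus restates their narrow peaks and is no separate check. With windows of 1000 bp sensors and adaptors fell from 2 to 1 (10.0%, against 29.3% of all genes under that rule). The longer ISRE form lowered the count of promoters with a core from 11 to 5 (all genes 0.366%). The other 57 of 63 alternatives moved no count by over 1.5 times. They include removal of peaks shared with H3K9me3, added after seeing the data. Its outcome was fixed in advance and is no sign of stability, since no H3K9me3 peak lay closer than 23.1 kb to a member. For H3K9me3, R-loop and DDX55 every count stayed at 0. Only windows of 5000 bp could have raised these counts, since the other rules are stricter than the main one. The zeros under stricter rules were fixed in advance and are no sign of stability, though they are counted among the 57. No paired analysis was possible because the merged lists carry no value per sample, and for the same reason no sample could be left out.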

Other observations

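Outside the 34 genes, Ddx60, a helicase gene of the RNA-sensing pathway, was alone among the other 112 pathway genes in having a DDX55 peak (0.256% of all protein-coding genes had one at an end). This peak of 470 bp (chromosome 8, 61928080 to 61928549) shared 240 bp with the 301 bp RNA polymerase II peak of Ddx60. Ddx60 also held an R-loop peak of 397 bp (chromosome 8, 62031568 to 62031964), which shared 0 bp with RNA polymerase II. It is 1 gene of 112, and no test was made.

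H3K9me3 lay at an end of 3 of 112 other pathway genes, near the 2.96% of all genes. Sp110, which encodes a nuclear body protein, held 6 H3K9me3 peaks in its span, covering 11661 bp, the widest of 3249 bp (chromosome 1, 85582909 to 85586157). Il10rb had a peak of 1198 bp that lay 2878 bp past its end, and Samd9l had a peak of 615 bp that lay 1820 bp past its end. Ifi213, a gene of the interferon-inducible DNA-binding family, held a peak of 1446 bp in its span only.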
